A study of Mus musculus with 9 samples.

Results

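Cell cycle genes were followed in right ventricular myocardium of pulmonary banded and sham-operated mice. The set holds 45 genes named by symbol, of which 44 matched a probe set that names a single gene, out of 18193 genes measured in all. Ccnb1 was not analysed here. The genes were divided by role into 20 of mitosis, 10 of DNA replication and nucleotide supply, and 14 cyclins, cyclin-dependent kinases, kinase inhibitors and the transcription factor E2f1. Where a gene had several probe sets, the brightest on average across the 9 arrays stands for it, a choice that does not use the groups.

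Banding of the pulmonary artery makes the right ventricle pump against a raised pressure. The series text names 5 mice without making clear whether that is the number in each group, and the labels give 5 banding arrays and 4 sham arrays. All were of right ventricle myocardium from male wild-type C57BL6J mice aged 6 to 8 weeks. The mice were killed under isoflurane anaesthesia, with total RNA hybridised to one-colour Affymetrix arrays. Time since surgery is not stated. The labels number the replicates but do not state that every array is from its own mouse, so p-values reflect only the spread among these arrays, which may be technical. Values are log2 expression as the authors deposited them, from a floor of 2.20 up to 16.43. A group is called dim below when its mean lies under 4.20, which is 2 log2 units above that floor.

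A dividing cell copies its DNA once and then separates the copies. D-type cyclins with Cdk4 start the passage out of rest by releasing E2F factors, which switch on genes for nucleotide synthesis and for the MCM helicase that opens DNA. Cyclin A, cyclin B and Cdk1 then drive entry into mitosis, where aurora and polo-like kinases, kinesins, centromere proteins and the checkpoint proteins Bub1 and Bub1b build and control the spindle, and Anln, Ect2 and Prc1 serve the final cleavage of the cell. Inhibitors such as Cdkn1a, which encodes p21, and Cdkn1b restrain the kinases. In the adult heart most cardiomyocytes have left the cycle, whereas fibroblasts, endothelial cells and macrophages can re-enter it.

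Promoter sequences of 6 genes are shown because they represent the behaviours described below. Cdk1, Ccnb2 and Top2a were higher in banding at the late, mitotic end of the cycle. Mcm5 was a replication gene that was higher, Pcna one that did not pass the test, and Cenpf a mitosis gene that was lower. Each window runs from 250 bases before to 50 bases after an annotated start, for build GRCm38.p6. For Mcm5, Top2a and Cenpf that start lies inside the outer end of the gene as RefSeq gives it. Distances below are counted from the start used for the window. The windows are chr10:69352863-69353162 on the minus strand for Cdk1, chr9:70421505-70421804 on the minus strand for Ccnb2, chr11:99024140-99024439 on the minus strand for Top2a, chr8:75109259-75109558 on the plus strand for Mcm5, chr2:132253131-132253430 on the minus strand for Pcna and chr1:189688037-189688336 on the minus strand for Cenpf. Sequences are written 5′ to 3′ along the gene. Capitals mark 3 motifs searched on both strands, namely the cell cycle homology region (CHR) TTTGAA, the CCAAT box CCAAT and an E2F-like motif TTTNNCGC, in which N is any base.
Cdk1: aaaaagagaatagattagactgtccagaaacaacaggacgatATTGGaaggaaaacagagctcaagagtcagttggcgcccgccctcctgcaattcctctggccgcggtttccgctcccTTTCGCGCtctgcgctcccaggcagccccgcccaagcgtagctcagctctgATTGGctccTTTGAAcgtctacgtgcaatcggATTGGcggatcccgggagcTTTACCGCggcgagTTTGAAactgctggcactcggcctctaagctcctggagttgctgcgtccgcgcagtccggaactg
Ccnb2: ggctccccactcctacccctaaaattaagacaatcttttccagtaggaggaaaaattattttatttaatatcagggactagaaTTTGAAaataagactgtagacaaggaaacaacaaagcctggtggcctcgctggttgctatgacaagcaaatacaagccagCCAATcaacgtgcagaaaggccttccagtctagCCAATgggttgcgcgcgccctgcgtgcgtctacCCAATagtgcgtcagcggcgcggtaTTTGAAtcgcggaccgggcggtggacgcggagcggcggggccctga
Top2a: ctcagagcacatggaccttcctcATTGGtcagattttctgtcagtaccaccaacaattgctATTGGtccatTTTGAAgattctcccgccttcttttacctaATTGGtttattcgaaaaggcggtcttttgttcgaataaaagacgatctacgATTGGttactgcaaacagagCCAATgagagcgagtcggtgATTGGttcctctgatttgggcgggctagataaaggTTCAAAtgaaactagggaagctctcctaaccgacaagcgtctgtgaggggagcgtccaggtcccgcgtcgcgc
Mcm5: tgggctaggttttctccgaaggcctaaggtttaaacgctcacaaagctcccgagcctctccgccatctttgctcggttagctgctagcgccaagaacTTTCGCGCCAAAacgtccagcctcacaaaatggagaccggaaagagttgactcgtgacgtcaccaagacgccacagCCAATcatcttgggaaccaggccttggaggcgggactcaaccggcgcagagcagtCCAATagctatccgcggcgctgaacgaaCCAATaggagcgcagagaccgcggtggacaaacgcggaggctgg
Pcna: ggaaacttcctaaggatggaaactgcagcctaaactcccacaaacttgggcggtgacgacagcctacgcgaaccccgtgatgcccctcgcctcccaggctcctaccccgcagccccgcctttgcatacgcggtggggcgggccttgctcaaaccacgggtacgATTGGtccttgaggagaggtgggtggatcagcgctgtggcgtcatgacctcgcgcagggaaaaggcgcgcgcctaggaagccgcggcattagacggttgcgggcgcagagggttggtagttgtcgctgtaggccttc
Cenpf: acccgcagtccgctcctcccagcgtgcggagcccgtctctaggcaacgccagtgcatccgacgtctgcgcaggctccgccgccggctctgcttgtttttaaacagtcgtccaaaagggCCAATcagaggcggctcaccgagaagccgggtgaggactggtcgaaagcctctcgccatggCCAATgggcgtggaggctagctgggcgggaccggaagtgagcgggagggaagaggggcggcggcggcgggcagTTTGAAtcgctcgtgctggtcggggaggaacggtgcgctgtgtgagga

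As background, CHR elements are known to recruit the complex that represses mitotic genes in resting cells and activates them in dividing ones, CCAAT boxes bind NF-Y, and E2F motifs are typical of replication genes. A RefSeq window was found for 36 of the 44 genes, and 8 had none in the table used (Aurkb, Ccna2, Ccnd1, Ccnd2, Ccne2, Kif20a, Mcm4 and Tpx2). The letters TTTGAA occurred in 13 of 17 mitosis genes (76.5%), in 1 of 9 replication genes (11.1%) and in 2 of 10 cyclin and inhibitor genes (20.0%). Of all 27025 genes with a window of the same length, 20.2% held them. In the cyclin group the 2 genes were Cdk1 and Ccnb2. The E2F-like letters occurred in 0 of 17 mitosis genes, 5 of 9 replication genes (55.6%) and 2 of 10 cyclin and inhibitor genes (20.0%), against 5.93% of all genes. CCAAT occurred in 14 of 17 mitosis genes (82.4%), 8 of 9 replication genes (88.9%) and 6 of 10 cyclin and inhibitor genes (60.0%), against 41.1% of all genes. The motifs can overlap, and in the Mcm5 window 2 overlapping E2F-like matches form a single stretch. In the Cdk1 window TTTGAA matches begin 71 and 15 bases before the start, and the Top2a window holds matches that begin 179 and 23 bases before the start. The motif was also present in the windows of Cenpa and Cenpf, which were lower in banding, and was not matched in those of Birc5, Bub1, Cenpe and Nusap1, which were higher. A match describes letters in a window and was not tested as a binding site.

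Setting banded against sham ventricles addresses how far genes of DNA replication and division change when the right ventricle is overloaded. Among the 44 genes 34 rose in banding and 2 fell, while 8 missed an adjusted p of 0.05 in a limma fit over all 18193 genes. Over all genes 38.4% passed in either direction, 18.4% higher and 20.0% lower, so the set held 77.3% higher genes beside a background of 18.4%. The 44 genes were chosen with earlier results of these data known, so this excess is a description and not an independent test. The background holds 7180 genes that were dim in both groups, against 2 of the 44, and among the 11013 genes that were not, 29.8% were higher and 32.2% lower. The median difference, banding minus sham, was 1.48 log2 units over the 44 genes and 0 over all genes, and 1.10 over the 44 with dim values raised to the dim level. Counting a dim group at the dim level and no gene dim in both groups, rises of at least 2-fold past the threshold were found in 23 of the 44 genes, where the background was 7.30%, and a fall of that size in 1, Cenpf, where it was 5.49%. Every banding array lay above every sham array in 33 genes and below in 2, against 17.4% and 19.3% of all genes (36.7% in either direction). These arrays are of bulk tissue, in which more dividing cells and more RNA per dividing cell cannot be told apart.

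**Figure D1:**
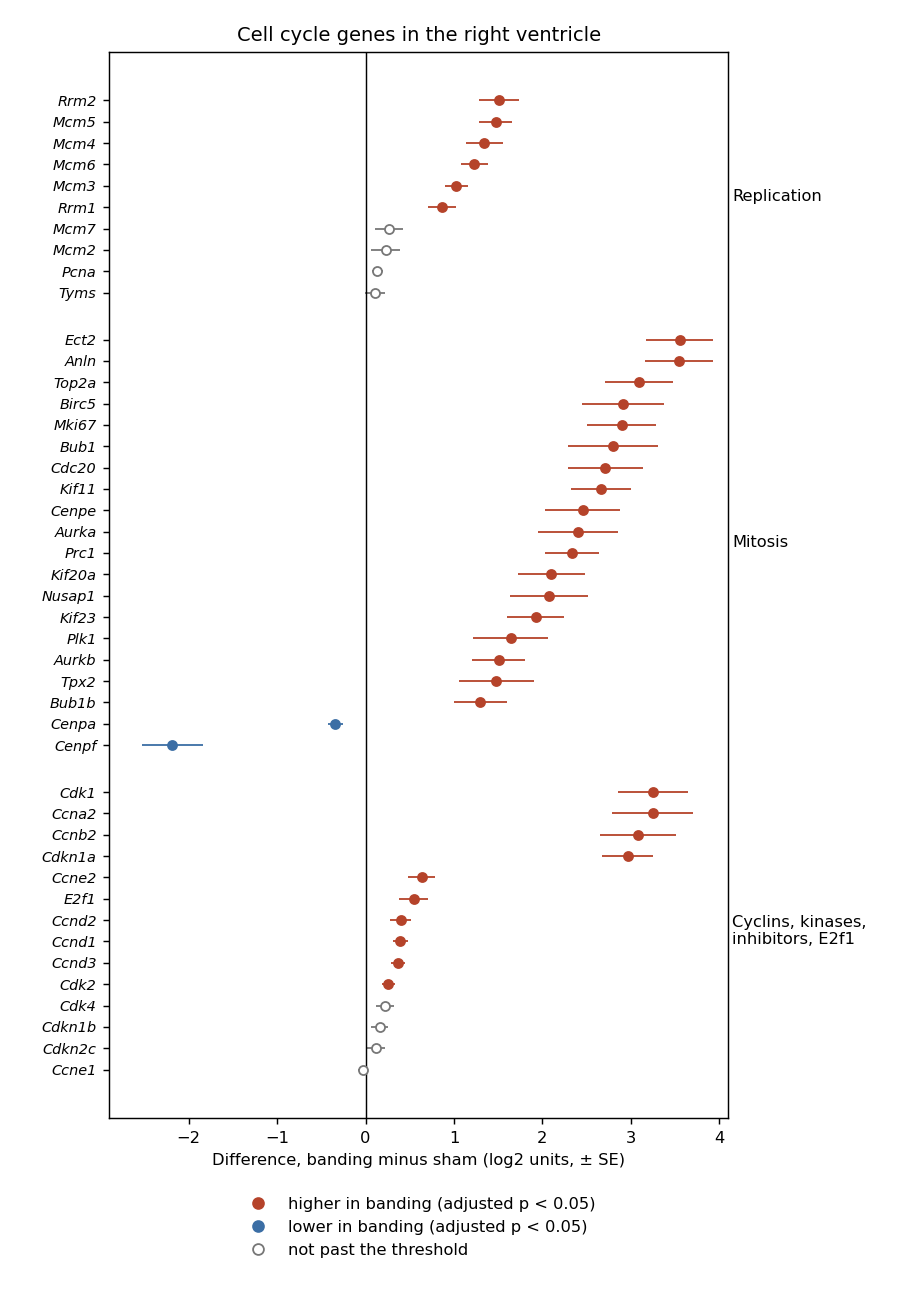
Difference between banding and sham in log2 units (x axis, ± SE, 5 banding and 4 sham arrays) for each of the 44 genes, grouped by role. Filled points passed an adjusted p of 0.05, 34 of them to the right of 0 and 2, Cenpf and Cenpa, to the left, and open points did not pass.

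By role, of 20 mitosis genes 18 were higher, 2 lower and none failed to pass, with a median difference of 2.37 log2 units, or 1.86 with dim values raised to the dim level. Of 10 replication genes 6 were higher, 0 lower and 4 not past the threshold, and their median was 0.95. Of 14 cyclin and inhibitor genes 10 were higher, 0 lower and 4 not past it, and their median was 0.40. The difference between roles was not tested, since genes of one array are not replicates. Among the 18 higher mitosis genes, 8 were not dim in either group and differed by 1.92 to 3.55 log2 units, while the other 10 were dim in sham, with rises of at least 1.29-fold to at least 6.00-fold. The 6 higher replication genes differed by 0.87 to 1.51. When a gene's probe sets were averaged instead, the median was 1.52 for mitosis, 0.60 for replication and 0.31 for the cyclin and inhibitor genes.

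Among mitosis genes, Mki67, which encodes the proliferation marker Ki-67, stood at 8.19, 8.70, 8.84, 9.39 and 9.65 on the banding arrays, against 5.52, 5.78, 6.95 and 5.99 on the sham arrays. It rose 7.44-fold (log2 2.90 ± 0.39 SE, adjusted p = 0.000775). Top2a, the topoisomerase that untangles replicated chromosomes, had 7.31, 8.18, 8.14, 8.65 and 8.76 in banding, against 4.83, 4.54, 5.97 and 5.09 in sham. In both genes the groups lay apart with banding above, as in 17.4% of all genes. For both, sham replicate 3 was the highest sham array by about 1 log2 unit. Top2a rose 8.56-fold (3.10 ± 0.38, adjusted p = 0.000543). Birc5, which encodes survivin, a subunit of the chromosomal passenger complex, had 6.48, 7.64, 7.63, 8.14 and 8.23 in banding, against 3.81, 4.63, 5.60 and 4.81 in sham, and rose 7.53-fold (2.91 ± 0.47, adjusted p = 0.00176).

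Genes of cytokinesis were also higher. Anln, which encodes the actin-binding protein anillin of the cleavage furrow, had 7.83, 8.65, 8.29, 9.49 and 9.41 in banding, against 4.72, 5.10, 5.46 and 5.45 in sham. It rose 11.7-fold (log2 3.55 ± 0.38, adjusted p = 0.000298), and differed by 1.86 with the mean of its probe sets. Ect2, the exchange factor that activates RhoA at the furrow, had 5.87, 6.37, 6.65, 7.49 and 7.54 in banding, against 2.98, 3.19, 3.63 and 3.12 in sham. All 4 sham arrays were dim, so its rise is given as at least 6.00-fold (3.55 ± 0.38, adjusted p = 0.000273). Prc1, which bundles microtubules of the central spindle, rose 5.05-fold (2.34 ± 0.31, adjusted p = 0.000704), and Kif23, a kinesin of the same structure, rose 3.79-fold (1.92 ± 0.32, adjusted p = 0.00216).

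The other mitosis genes that were higher were Cdc20, the activator of the anaphase-promoting complex, at 6.56-fold (log2 2.71 ± 0.43), Nusap1, a spindle protein, at 4.20-fold (2.07 ± 0.44), and 9 genes whose sham mean was dim. Of these Kif11, the kinesin that pushes spindle poles apart, rose at least 4.14-fold, the cytokinesis kinesin Kif20a at least 3.53-fold, the checkpoint kinase Bub1 at least 3.30-fold and the centromere kinesin Cenpe at least 2.83-fold. Bub1b rose at least 2.26-fold, the polo-like kinase Plk1 at least 1.78-fold, the aurora kinases Aurka and Aurkb at least 1.73-fold and 1.51-fold, and Tpx2, which activates Aurka on the spindle, at least 1.29-fold. Adjusted p ran from 0.000273 to 0.0266 over the 18 genes, with Tpx2 at the upper end. Nusap1, not counted as dim, had a sham mean of 4.33, close to the dim level of 4.20. When dim values were raised to the dim level, Aurka (log2 0.86, adjusted p = 0.149), Aurkb, Plk1 and Tpx2 no longer passed. The Tpx2 call was also lost without sham replicate 1 or sham replicate 2.

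Cenpf and Cenpa, chosen for mention after their values were seen, went the other way. Cenpf, a large kinetochore and nuclear envelope protein, had 6.48, 6.26, 6.60, 7.58 and 7.10 in banding, against 8.33, 9.46, 8.78 and 9.40 in sham. Every banding array lay below every sham array, as in 19.3% of all genes, and the gene was 4.55-fold lower (log2 -2.19 ± 0.35, adjusted p = 0.00172). These values come from 1 of its 3 probe sets, and the other 2 were dim in both groups, with banding means of 2.20 and 2.21 and sham means of 2.22 and 2.20. Cenpa, the histone H3 variant of centromeres, had 9.56, 9.62, 9.53, 9.83 and 9.67 in banding, against 9.84, 10.14, 10.09 and 9.88 in sham. It was 1.27-fold lower (-0.34 ± 0.08, adjusted p = 0.0139), while a dimmer probe set of Cenpa differed by -0.01 and did not pass. With the mean of all probe sets the difference was -0.73 for Cenpf and -0.12 for Cenpa, and both still passed.

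**Figure D2:**
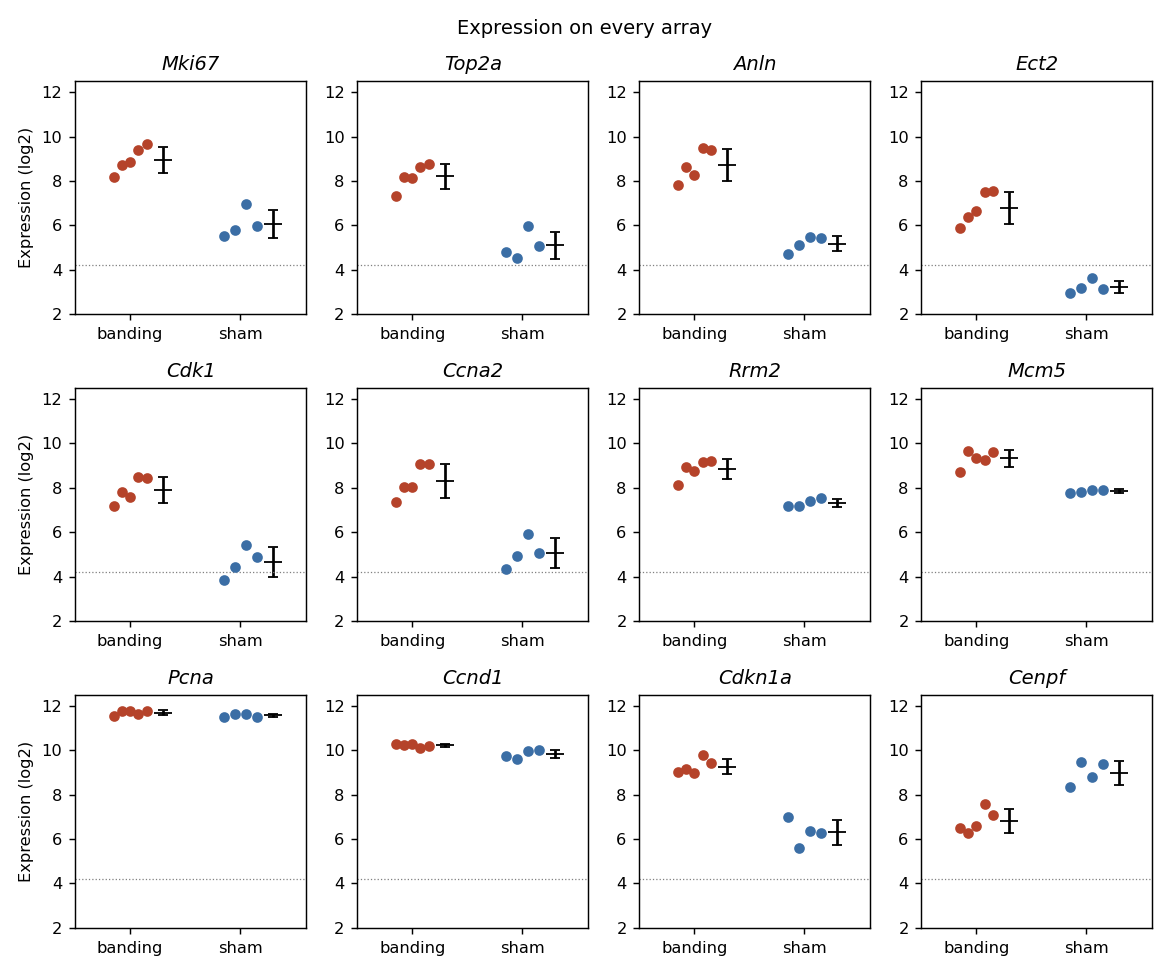
Log2 expression on each of the 5 banding arrays (left) and 4 sham arrays (right) for 12 genes, with the mean ± SD beside the points and a dotted line at the dim level of 4.20. Banding arrays lie above sham arrays in Mki67, Top2a, Anln, Ect2, Cdk1, Ccna2, Rrm2, Mcm5, Ccnd1 and Cdkn1a, below them in Cenpf, and overlap them in Pcna. Separation with banding above was seen in 17.4% of all genes, and with banding below in 19.3%.

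In the replication group, both subunits of ribonucleotide reductase, the enzyme that makes deoxynucleotides, were higher. Rrm2, the subunit whose supply follows the cell cycle, had 8.14, 8.93, 8.74, 9.17 and 9.23 in banding, against 7.19, 7.18, 7.41 and 7.54 in sham, and rose 2.85-fold (log2 1.51 ± 0.23, adjusted p = 0.00132). Rrm1 rose 1.83-fold (0.87 ± 0.16, adjusted p = 0.00346). Of the 6 subunits of the MCM helicase, 4 were higher and 2 did not pass. Mcm5 had 8.71, 9.65, 9.36, 9.27 and 9.60 in banding, against 7.75, 7.83, 7.89 and 7.92 in sham, a 2.78-fold rise (1.47 ± 0.19, adjusted p = 0.000606). Mcm4 had 8.60, 9.19, 9.38, 8.96 and 9.43 in banding, against 7.68, 8.05, 7.41 and 7.94 in sham, a 2.53-fold rise (1.34 ± 0.21, adjusted p = 0.00151).

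Mcm6 had 9.09, 9.73, 9.38, 9.07 and 9.40 in banding, against 7.87, 8.08, 8.24 and 8.23 in sham, and rose 2.34-fold (log2 1.23 ± 0.15, adjusted p = 0.000532). Mcm3 rose 2.04-fold (1.03 ± 0.13, adjusted p = 0.000622). For these 4 helicase genes no banding array overlapped a sham array, as in 17.4% of all genes with banding above. Mcm2 had 6.15, 6.74, 6.69, 6.12 and 6.48 in banding, against 6.36, 6.24, 6.27 and 5.96 in sham, and its difference of 0.23 ± 0.16 did not pass (adjusted p = 0.356). Mcm7 differed by 0.27 ± 0.15 (adjusted p = 0.241). Whether the 2 groups of subunits differ from each other was not tested. Pcna, the sliding clamp of DNA polymerase, had 11.53, 11.77, 11.78, 11.64 and 11.75 in banding, against 11.49, 11.64, 11.62 and 11.50 in sham. The groups overlapped and the difference of 0.13 ± 0.06 had an adjusted p of 0.151. Of 18 alternatives it passed only when banding replicate 1 was left out (adjusted p = 0.032). Tyms, the thymidylate synthase, was dim in both groups, with the same value on 7 of the 9 arrays.

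Several replication values depended on the probe set. Names ending in _x_at or _s_at mark probe sets that can also pick up related sequences, and 5 of the 10 replication genes were represented by such a probe set, against 2 of 20 mitosis genes. Without them the median of the replication genes was 0.52 log2 units, and Mcm3 (0.52, adjusted p = 0.0701) and Mcm4 (0.52, adjusted p = 0.0538) no longer passed, leaving 4 genes higher. Mcm5 differed by 1.75 and Rrm2 by 1.95 on their remaining probe sets. Over the 44 genes there were 107 probe sets, of which 63 were not the chosen ones. Of these 63, 31 were dim in both groups and 24 of the other 32 belonged to genes called higher. All 24 had a positive difference, 17 passed when each probe set was tested singly and 7 did not. Probe sets dim in sham entered this count only through a higher banding mean. The shared sign was therefore partly fixed by the choice and is not a test.

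**Figure D3:**
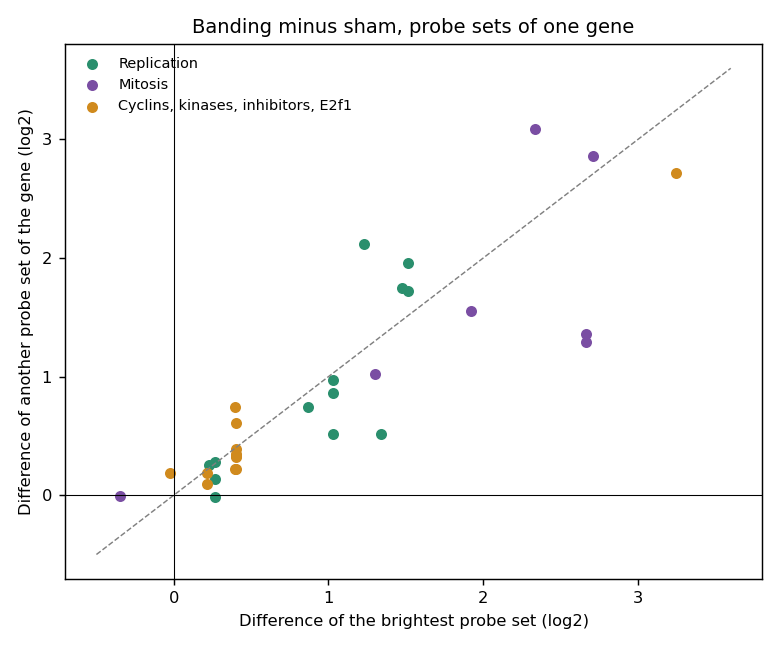
Difference between banding and sham in log2 units for the highest probe set of a gene (x axis) and for each other probe set of that gene not dim in both groups (y axis, 32 probe sets of 19 genes), coloured by role, with a dashed line where both are equal. Points of genes called higher lie above 0 on both axes, and those of Mcm3, Mcm4 and Kif11 include points well below the line.

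The cyclins and kinase of late stages rose by several fold. Cdk1, the kinase of mitotic entry, had 7.17, 7.81, 7.59, 8.49 and 8.44 in banding, against 3.87, 4.43, 5.44 and 4.86 in sham. It rose 9.50-fold (log2 3.25 ± 0.40, adjusted p = 0.000506). Ccna2, which encodes the cyclin A of dividing body cells, had 7.36, 8.03, 8.02, 9.08 and 9.08 in banding, against 4.35, 4.91, 5.93 and 5.06 in sham, and rose 9.49-fold (3.25 ± 0.46, adjusted p = 0.00102). Ccnb2, a B-type cyclin partner of Cdk1, had 6.76, 7.56, 7.39, 8.41 and 8.21 in banding, against 4.06, 4.29, 5.50 and 4.48 in sham. Groups did not overlap in any of the 3 genes, as in 17.4% of all genes with banding above. Ccnb2 rose 8.47-fold (3.08 ± 0.42, adjusted p = 0.00087).

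The D-type cyclins of the first stage rose by less than 1.5-fold each on their highest probe sets, while another probe set differed by 0.75 log2 units for Ccnd1 and by 0.61 for Ccnd2. Ccnd1 had 10.28, 10.24, 10.27, 10.12 and 10.18 in banding, against 9.74, 9.60, 9.95 and 10.01 in sham, and rose 1.31-fold (log2 0.39 ± 0.09, adjusted p = 0.00804). Ccnd2 had 10.97, 10.95, 10.85, 10.71 and 10.49 in banding, against 10.17, 10.48, 10.46 and 10.48 in sham, with banding replicate 5 just above the sham arrays. Its rise of 1.32-fold (0.40 ± 0.12, adjusted p = 0.0302) was lost without any of banding replicates 1, 2 and 3 or sham replicates 1, 2 and 3, one at a time. Ccnd3 had 9.42, 9.45, 9.30, 9.56 and 9.45 in banding, against 9.02, 9.01, 9.29 and 8.94 in sham, and rose 1.29-fold (0.37 ± 0.08, adjusted p = 0.00699). On these probe sets all 3 D-type cyclins were separated between groups, by a small distance. Over all genes 17.4% were separated with banding above. Some other probe sets overlapped between groups and did not pass when tested singly. For Ccnd1 this held at 0.22 (adjusted p = 0.153), and for Ccnd2 at 0.39 (adjusted p = 0.0538) and 0.22 (adjusted p = 0.124). The remaining probe sets of Ccnd1 and Ccnd2 passed. Ccne2, an E-type cyclin of the start of DNA synthesis, rose 1.55-fold (0.64 ± 0.15, adjusted p = 0.0125). Ccne1 differed by -0.02 ± 0.06 (adjusted p = 0.866) and had the same value on 5 of the 9 arrays.

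Cdk2 rose 1.20-fold (log2 0.26 ± 0.08, adjusted p = 0.0325), a call lost when arrays were quantile normalised or centred on their medians. It was also lost without any of banding replicates 3, 4 and 5 or sham replicates 1, 2 and 3, one at a time, with adjusted p no higher than 0.0783 over these and the other alternatives. Cdk4, the partner of D-type cyclins, differed by 0.22 ± 0.10 with an adjusted p of 0.136, and of 18 alternatives passed only when sham replicate 3 was left out (adjusted p = 0.0443). E2f1 had 3.23, 3.74, 3.23, 3.88 and 3.63 in banding, against 2.82, 2.97, 2.96 and 3.23 in sham. It was dim in both groups, so no fold is given for its call (0.55 ± 0.16, adjusted p = 0.0313), and the call was lost when dim values were raised, and without any of banding replicates 2, 4 and 5 or sham replicates 1, 2 and 3, one at a time.

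The inhibitors did not move together. Cdkn1a, the p21 inhibitor that p53 can switch on, had 9.02, 9.15, 8.96, 9.77 and 9.43 in banding, against 6.98, 5.60, 6.36 and 6.25 in sham. The lowest banding array lay about 2 log2 units above the highest sham array, and the rise was 7.80-fold (log2 2.96 ± 0.29, adjusted p = 0.000207). Cdkn1b, which encodes p27, had 10.09, 10.08, 10.38, 10.16 and 10.09 in banding, against 10.09, 10.13, 9.75 and 10.03 in sham, and its difference of 0.16 ± 0.10 did not pass (adjusted p = 0.265). Cdkn2c, which encodes the Cdk4 inhibitor p18, had 7.45, 7.53, 7.57, 7.97 and 7.74 in banding, against 7.45, 7.60, 7.57 and 7.53 in sham. Groups overlapped for Cdkn1b and Cdkn2c, and Cdkn2c differed by 0.11 ± 0.10 (adjusted p = 0.471).

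Values of mitosis genes varied between the banding arrays. Of the 18 higher mitosis genes, banding replicate 1 held the lowest banding value in 17, and banding replicates 4 and 5 held the highest in 7 and 11. The median over all 20 mitosis genes, 10 of them dim in sham, of an array's value minus the sham mean was 1.40, 2.20, 2.07, 3.07 and 3.12 log2 units on banding replicates 1 to 5, and -0.31, -0.03, 0.28 and 0.04 on sham replicates 1 to 4. Replication genes spanned a narrower range, at 0.62, 1.05, 0.96, 0.85 and 1.22 on the banding arrays and between -0.08 and 0.05 on the sham arrays. In the sham group, replicate 3 held the highest value in 12 of the 18 mitosis genes and replicate 1 the lowest in 9. SDs of mitosis genes were wide in both groups, with a median of 0.66 in banding and 0.42 in sham, and 18 of the 20 genes had an SD above 0.5 in banding.

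**Figure D4:**
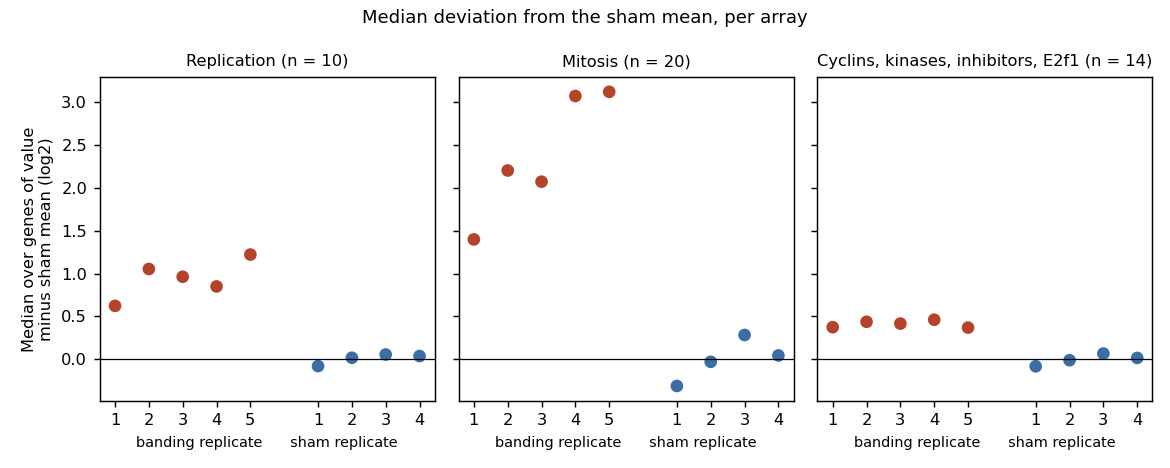
Median over the genes of each role of an array's log2 value minus the sham mean of that gene, for banding replicates 1 to 5 and sham replicates 1 to 4. Mitosis genes lie between 1.40 and 3.12 on the banding arrays, replication genes between 0.62 and 1.22 and cyclin and inhibitor genes between 0.37 and 0.46.

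Other genes of the same processes were counted from lists of the pathway, each holding genes outside the 44. These lists too were chosen with earlier results of these data known, so their counts are not an independent test. In mitosis, 36 of 57 other genes rose, 0 fell and 21 missed the threshold, with a median difference of 1.42 log2 units. The higher share was 63.2%, beside 18.4% higher and 20.0% lower over all genes. Of those 57, 16 were dim in both groups and 21 in sham only. Pttg1, which encodes securin, the guard of sister chromatid cohesion, rose 5.19-fold (log2 2.38 ± 0.17, adjusted p = 6.02e-05), and the condensin gene Smc4 rose 3.14-fold (1.65 ± 0.17, adjusted p = 0.000226). Aspm, a spindle pole protein, rose at least 5.59-fold (3.18 ± 0.31), the kinetochore genes Nuf2 and Spc25 at least 7.18-fold and 6.32-fold, and Espl1, the protease separase, at least 1.68-fold. Hjurp was not analysed here.

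In replication, 14 of 38 other genes rose, 7 fell and 17 missed the threshold, with a median of 0.13. Of these genes 36.8% rose and 18.4% fell, beside 18.4% and 20.0% of all genes. Uhrf1, which guides maintenance of DNA methylation, rose 3.98-fold (log2 1.99 ± 0.22, adjusted p = 0.000313), the origin licensing factor Cdt1 rose 2.54-fold (1.34 ± 0.16, adjusted p = 0.000396), and the histone mRNA binding protein gene Slbp rose 1.38-fold. Gmnn, which encodes geminin, the inhibitor of Cdt1, was 2.64-fold lower (-1.40 ± 0.17, adjusted p = 0.000529). Rpa2 and Rpa3, subunits of the complex that coats single-stranded DNA, were 1.55-fold and 1.77-fold lower. Chaf1a was not analysed here.

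In cell cycle control, 11 of 38 other genes rose, 6 fell and 21 missed the threshold, with a median of 0.08. These are shares of 28.9% and 15.8%, beside 18.4% and 20.0% of all genes. Cdk6, a kinase partner of D-type cyclins, rose 2.98-fold (log2 1.57 ± 0.11, adjusted p = 5.95e-05), Skp2, which targets p27 for destruction, rose 3.49-fold (1.80 ± 0.22, adjusted p = 0.00046), and the pocket protein gene Rbl1 rose 3.08-fold. Cdkn2b, an inhibitor of Cdk4 and Cdk6, averaged 6.93 in banding, against 4.43 in sham, where all 4 arrays shared a single value (2.50 ± 0.35, adjusted p = 0.000902). E2f6, a repressor of the E2F family, was 2.07-fold lower, and Ccnh, the cyclin of the Cdk-activating kinase, was 1.79-fold lower. Foxm1 and Mybl2, regulators of mitotic genes, were dim in both groups, so a change in either could be missed. Of 12 p53 target genes 5 were higher (41.7%) and 2 lower (16.7%), beside 18.4% and 20.0% of all genes. Phlda3 rose 4.35-fold (2.12 ± 0.17, adjusted p = 8.69e-05), Plk2 2.18-fold, Eda2r 1.96-fold and Trp53inp1 1.88-fold, while Gadd45a was 3.89-fold lower (-1.96 ± 0.25, adjusted p = 0.000592) and Mdm2 1.28-fold lower. Trp53 and Bax were not analysed here.

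**Figure D5:**
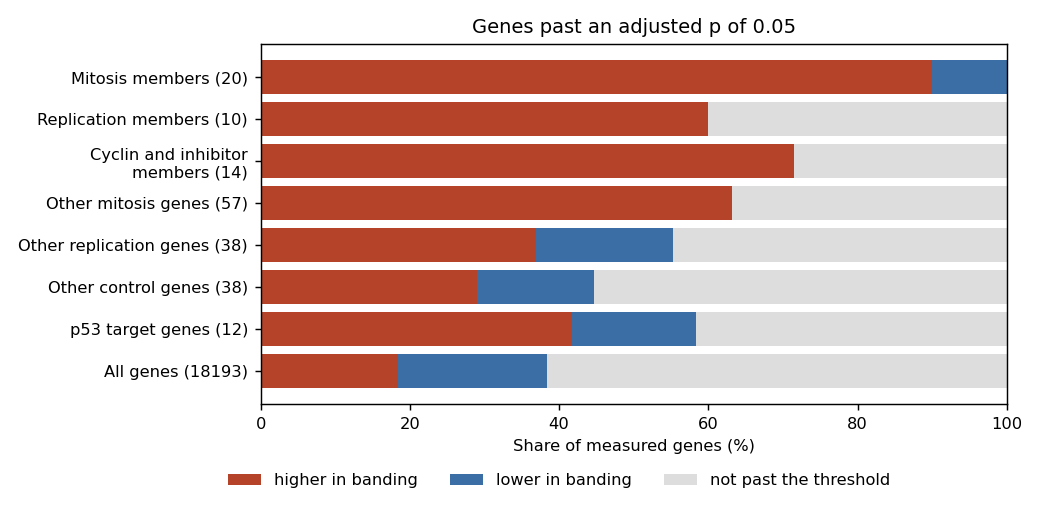
Share of measured genes (%, number measured in brackets) that were higher in banding, lower in banding or not past an adjusted p of 0.05, for the 3 roles, 4 lists of other genes and all genes. The higher share was 90.0% in the mitosis genes and 63.2% in other mitosis genes, beside 18.4% of all genes.

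Markers of the cells that could hold these transcripts moved on the same arrays, and their part in the result was not tested. For each marker list the linear values were summed per array. Every such sum is weighted to the brightest genes of its list and does not measure cell number. The 12 cardiomyocyte markers were all above the dim level and their sum ran from 383866 to 438745 in banding, against 445457 to 459963 in sham, with 2 higher and 5 lower. The largest fall was that of Tnni3, 1.87-fold, while Myh7 rose 38.9-fold. Myh6, Actn2, Ttn, Actc1 and Tnnt2 did not pass. Of 12 fibroblast markers 10 were higher and 1 lower, with sums of 150356 to 182744 in banding, against 29749.7 to 32855 in sham. That sum is weighted to the brightest genes in banding, Col3a1, Postn, Col1a2 and Col1a1, which rose 4.52-fold to 28.0-fold. It does not measure fibroblast number. The others ran from Lox, 69.2-fold higher, through Pdgfra at 1.45-fold and Dcn at 1.37-fold, to Dpep1, 2.83-fold lower, and Ddr2 did not pass. Of 14 macrophage markers 11 were higher and 2 lower, with sums of 27938 to 41777 in banding, against 15018 to 17641 in sham. The fibroblast, macrophage and cardiomyocyte sums each lay apart between the groups. On banding replicates 1 to 5 the macrophage sum was 27938, 34553, 37163, 30500.4 and 41777. The cardiomyocyte sum was 438745, 406445, 420096, 383866 and 384790. The mitotic median was lowest on replicate 1 and highest on replicates 4 and 5. The cardiomyocyte sum was highest on replicate 1 and lowest on replicates 4 and 5. The macrophage sum was lowest on replicate 1 and highest on replicate 5, and the fibroblast sum lowest on replicate 1 and highest on replicate 2. The endothelial sum was highest on replicate 4 and the smooth muscle sum on replicate 2, both lowest on replicate 5. Whether any of these orders are related was not tested. Endothelial markers were higher in 7 of 12 (35979.7 to 43627 in banding, against 31552 to 36594 in sham), and smooth muscle and pericyte markers in 7 of 10 with 1 lower (28009 to 38488 in banding, against 27793 to 29139 in sham). For all these counts the background was 18.4% higher and 20.0% lower over all genes. Among genes not dim in both groups it was 29.8% and 32.2%.

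Markers of blood cells were counted in the same way. All 10 lymphocyte markers were dim in both groups, Cd4 at the floor on every array, with sums of 60.6 to 136 in banding and 62.7 to 73.9 in sham. Neutrophil markers were higher in 1 of 6 and lower in 0 (sums of 125 to 612 in banding, against 86.3 to 605 in sham), with Mpo and Camp at the floor. Erythroid markers were higher in 0 of 6 and lower in 1 (4811 to 7701 in banding, against 6232 to 9549.7 in sham), with Hba-a1 at the floor. The erythroid gene that was lower was Alas2, the haem synthesis enzyme of red cell precursors, at 2.84-fold (adjusted p = 0.0168). All 12 liver markers were lower in banding, with sums of 84.2 to 786 in banding, against 10664 to 139632 in sham, the upper ends being banding replicate 5 and sham replicate 4. Without sham replicate 4, 34 of the 44 cell cycle genes were higher and 2 lower, and without both that array and banding replicate 5, 28 were higher and 2 lower. The calls lost without both arrays were those of Bub1b, Plk1, Tpx2, Ccne2, Cdk2 and E2f1. Every remaining sham array still had a higher liver sum than any banding array. These counts therefore cannot tell banding and the liver transcripts apart.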

How the data were processed

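Right ventricular RNA was measured on 5 banding and 4 sham one-colour Affymetrix arrays. For each probe set the authors deposited a log2 value that is already background-corrected and normalised. RMA and GCRMA are listed in the submitters' processing notes, with nothing on which was used for what, and background correction can leave dim probe sets at a floor. Of 45101 probe sets, 64 controls, 9160 naming no gene and 932 naming several were left out, and 34945 named 18193 genes by the platform table, whose symbols are not current throughout.

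Each gene took its highest-mean probe set over all arrays. The comparison of banding with sham used limma 3.58.1 in R 4.3.3 (lmFit and eBayes, two-sided, Benjamini-Hochberg over all 18193 genes, threshold 0.05, no minimum fold, no covariate, no filter). The number of arrays limits the precision. Array medians lay between 3.23 and 3.31, and 30.2% to 32.8% of probe sets were at the floor. Folds involving a single dim group are taken against its mean with each value raised to at least the dim level and are given as at least.

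The members and all lists were chosen with earlier results of these data known. Values on every array were given by rule for the 4 largest differences past the threshold in each role and for a fixed set of genes, and other lists name up to 6 genes of smallest p, plus Foxm1 and Mybl2. As alternatives, probe sets were averaged per gene; the others were leaving out _x_at and _s_at probe sets, a filter on dim genes, raising dim values to the dim level, quantile normalisation, centring arrays, trended and robust variance, the replicate number as a block, and leaving out arrays. Figures used Python 3.11.15, pandas 2.3.3 and matplotlib 3.10.9.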

Additional observations from a re-analysis of the deposited data

Results flagged for a closer look

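Among the 87 groups of 4 or 5 arrays that could be examined over the 44 genes, 6 held an array far from its nearest neighbour relative to the range of its group, and chance alone marks about 1 in 20 groups. Tyms stood at 3.09 on banding replicate 5, with the next banding array at 2.63, both under the dim level. Aurka stood at 2.20 on sham replicate 3, with the next sham array at 2.69, and Plk1 at 3.54 on sham replicate 4, with the others at 3.33. Ccne1 stood at 4.63 on banding replicate 4, with the next at 4.86. Ccnd2 stood at 10.17 on sham replicate 1, with the next at 10.46, and without that array the Ccnd2 call was lost. Cdkn1b stood at 10.38 on banding replicate 3, with the next at 10.16.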

How the results depend on the processing

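Of the 36 genes past the threshold, 22 stayed past it in the same direction under every one of the 18 alternatives that could be fitted for them, and 14 lost it in some. With the mean of all probe sets the median difference was 1.02 log2 units over the 44 genes, 0.60 for replication, 1.52 for mitosis and 0.31 for cyclins and inhibitors, and Ccne1 turned to 0.082. Without _x_at and _s_at probe sets the replication median was 0.52, Mcm7 turned to -0.019, 1 other mitosis gene was lower, and Aurkb had no probe set left. With dim values raised to the dim level the median over the 44 genes was 1.10. The filter on dim genes left Tyms, Aurka, Aurkb, Tpx2 and E2f1 untested. Replicate numbers are shared by the groups, but residuals of same-numbered arrays correlated at only 0.04, 0.00, -0.03 and -0.02, so the numbers were not taken as pairs. With the replicate block, 27 of the 44 genes were higher and 1 was lower, with 15 mitosis genes higher and 1 lower, 6 cyclin and inhibitor genes higher, 9 other replication genes higher and 1 p53 target lower. Cenpa, Bub1b, Plk1, Tpx2, Ccne2, Ccnd1, Ccnd2 and Ccnd3 then did not pass (adjusted p = 0.109 for Cenpa), and the block drops banding replicate 5 from the contrast, since no sham array has its number. Without sham replicate 4 and banding replicate 5 the cyclin and inhibitor median was 0.48. Leaving out 1 array at a time gave 30 to 34 higher and 2 lower of the 44 genes with medians of 1.31 to 1.63, 6 to 7 replication genes higher (0.88 to 1.03), 17 to 18 mitosis genes higher (2.17 to 2.61) and 7 to 10 cyclin and inhibitor genes higher (0.36 to 0.44). The Ccne1 difference ran from -0.046 to 0.024, positive without banding replicate 4. Quantile normalisation and centring shifted the median of genes whose mean over all arrays was above the dim level to -0.05 and -0.06, against -0.01 as deposited. Signal limits Tyms and E2f1, dim in both groups, and 10 mitosis genes, dim in sham. Ccne1 held the same value on 5 of the 9 arrays, so a change in it could be missed. Prc1 and Nusap1 had sham means of 4.26 and 4.33, close to the dim level of 4.20. The causes of these changes were not tested.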
